A study of Mus musculus with 15 samples.

Results

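The Hox genes were followed across 15 mouse tumors, 7 lymphomas and 8 neuroblastomas. All genes whose symbol is Hox, a cluster letter from a to d and a paralog number were taken, which gave 39 of the 23329 genes in the count files, 11 from HoxA on chromosome 6, 10 from HoxB on chromosome 11, 9 from HoxC on chromosome 15 and 9 from HoxD on chromosome 2 (mm10/GRCm38). The lymphomas came from cervical lymph nodes of C57BL/6 mice carrying *EμMyc*, in which an immunoglobulin enhancer drives *Myc* in B cells. They were 4 *EμMyc* tumors with onset at 13 to 19 weeks and 3 *EμMyc/Casp2-/-* tumors with onset at 8 to 12 weeks. The neuroblastomas were paraspinal thoracic tumors of Sv129/C57BL6 mice carrying *Th-MYCN*, in which the tyrosine hydroxylase promoter drives human MYCN in sympathetic neuroblasts, and were selected for little or no blood vascularization. They were 4 *Th-MYCN* tumors with onset at 10 to 21 weeks and 4 *Th-MYCN/Casp2-/-* tumors with onset at 15 to 24 weeks. In *Casp2-/-* mice the gene of caspase-2, a protease of cell death and genome stability control, is disrupted in all cells. Each tumor is 1 library from 1 mouse, and single tumors are named as the authors label them. Tumor type, strain and site cannot be told apart in this design, nor can genotype and onset among the lymphomas.

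Hox proteins are homeodomain transcription factors that give cells their position along the head-to-tail axis. The genes lie in clusters and are numbered in paralog groups, and the low-numbered genes at the 3′ end of a cluster are used in more anterior tissue than the high-numbered genes at its 5′ end. Sympathetic neuroblasts arise from trunk neural crest, whose derivatives keep a trunk Hox pattern, while in blood cells Hox genes are used mainly in stem and progenitor cells and fall as B cells mature. Hox proteins bind DNA with the TALE homeodomain proteins Pbx and Meis. MicroRNAs of the miR-196 and miR-10 families lie inside the clusters, and miR-196 is known to act on Hox transcripts.

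The counts of 1 strand column were used, which held 4940464 to 17638029 reads per tumor, and EuMycC2ko215 was the shallowest library. At 3 reads the smallest detectable level was 0.170 to 0.607 CPM, reads scaled to library size, which covers counting error only. *Casp2* itself checks the labels. It was at 166.9, 125.3, 202.8 and 139.4 CPM in the *EμMyc* tumors and 58.0, 51.9 and 76.1 CPM in the *EμMyc/Casp2-/-* tumors, which did not overlap. It was at 125.5, 93.3, 76.0 and 106.3 CPM in the *Th-MYCN* tumors and 80.2, 57.7, 39.6 and 54.5 CPM in the *Th-MYCN/Casp2-/-* tumors, where the highest *Casp2-/-* tumor lay above the lowest *Th-MYCN* tumor. The log2 fold change was -1.35 ± 0.27 (SE) in the lymphomas (edgeR likelihood ratio test [LRT] FDR 0.0004, quasi-likelihood test [QLF] FDR 0.0536) and -0.79 ± 0.25 in the neuroblastomas (LRT FDR 0.101, QLF FDR 0.327), and a count per gene does not show which exons the remaining reads came from. The 7 markers of sympathetic neuroblasts summed to 2414 to 4538 CPM in the neuroblastomas and 1.89 to 16.8 CPM in the lymphomas, and the 7 B cell markers to 1809 to 4447 CPM in the lymphomas and 5.71 to 22.0 CPM in the neuroblastomas. T cell markers summed to 1282 CPM in EuMycC2ko215 and to 45.5 to 175 CPM in the other lymphomas. The muscle, motor neuron and kidney markers summed to 189 CPM in MYCN175, 239 CPM in MYCNC2ko118 and 123 CPM in MYCNC2ko176, against 4.63 to 11.6 CPM in the other neuroblastomas. *Acta1* and *Myh1* of muscle were at 86.2 and 37.4 CPM in MYCN175 and 71.7 and 97.6 CPM in MYCNC2ko118. In MYCNC2ko176 they were at 1.93 and 0.193 CPM, and *Slc18a3* of motor neurons, at 106 CPM, gave most of the sum. In bulk tumors, fewer cells of a type and less RNA per cell cannot be told apart.

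The position of the last active gene in HoxD is read below from *Hoxd9* and its 5′ neighbor *Hoxd10*, and *Hoxc4* and *Hoxb4* were the highest Hox genes per kb of exon of neuroblastomas and lymphomas. Their promoters are therefore printed here, from 250 bases before to 50 after the transcription start of RefSeq (GRCm38.p6, plus strand). Capitals mark a CACGTG E-box, the motif bound by Myc and Max dimers, or a CCAAT box on either strand. In order, they lie at chr2:74697513-74697812, chr2:74691641-74691940, chr15:103034145-103034444 and chr11:96318017-96318316.
Hoxd9: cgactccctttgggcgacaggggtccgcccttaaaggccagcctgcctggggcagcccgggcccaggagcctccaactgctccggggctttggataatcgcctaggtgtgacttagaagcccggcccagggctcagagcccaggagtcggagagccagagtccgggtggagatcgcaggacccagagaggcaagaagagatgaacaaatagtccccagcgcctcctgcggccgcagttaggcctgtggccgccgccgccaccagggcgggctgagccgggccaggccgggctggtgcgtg
Hoxd10: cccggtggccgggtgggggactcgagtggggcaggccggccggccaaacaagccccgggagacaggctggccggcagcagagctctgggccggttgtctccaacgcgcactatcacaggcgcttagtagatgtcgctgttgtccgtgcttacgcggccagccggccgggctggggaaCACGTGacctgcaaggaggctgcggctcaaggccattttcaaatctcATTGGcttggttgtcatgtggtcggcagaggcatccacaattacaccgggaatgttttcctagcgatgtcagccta
Hoxc4: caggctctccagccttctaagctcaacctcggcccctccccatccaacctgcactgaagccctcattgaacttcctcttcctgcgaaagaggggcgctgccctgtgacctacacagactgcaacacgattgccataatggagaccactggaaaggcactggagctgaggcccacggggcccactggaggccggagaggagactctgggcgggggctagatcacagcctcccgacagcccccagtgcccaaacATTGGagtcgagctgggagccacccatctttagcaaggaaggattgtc
Hoxb4: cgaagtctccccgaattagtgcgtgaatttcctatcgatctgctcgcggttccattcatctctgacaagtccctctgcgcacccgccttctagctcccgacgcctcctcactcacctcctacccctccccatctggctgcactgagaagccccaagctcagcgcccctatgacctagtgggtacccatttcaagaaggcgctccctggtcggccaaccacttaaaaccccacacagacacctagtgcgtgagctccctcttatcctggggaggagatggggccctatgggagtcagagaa
The *Hoxd10* promoter held an E-box and a CCAAT box on the minus strand, the *Hoxc4* promoter held a CCAAT box on the minus strand, and the *Hoxd9* and *Hoxb4* promoters held neither. Of all 32851 promoters of this length, 7.15% held an E-box and 37.4% a CCAAT box. *Hoxd4*, which was active in every neuroblastoma, and *Hoxd1*, *Hoxd11* and *Hoxd13*, which were not, each held an E-box. *Hoxd11* held it in its promoter at chr2:74682073-74682372 and not in that at chr2:74679308-74679607. Besides these and *Hoxd10*, no matched Hox promoter held one. Promoters of 22 of the 39 Hox genes, 24 promoters in all, were matched by symbol. The genes *Hoxc4* and *Hoxd10* begin farther upstream in RefSeq, at chr15:103018097 and chr2:74684273. Promoters at those starts were not among the matched ones and were not searched.

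The mature miRNAs below are shown because the *Mir196a-1* locus, beside *Hoxb9*, was counted in the lymphomas described further on, and because miR-196a-5p and miR-196b-5p share 1 seed (bases 2 to 8, in capitals), as do miR-10a-5p and miR-10b-5p. The miR-196a-5p of *Mir196a-1* lies at chr11:96265187-96265208 and that of *Mir196a-2*, in HoxC, at chr15:102973365-102973386, and the miR-196b-5p of HoxA lies at chr6:52230129-52230150 on the minus strand (RefSeq, GRCm38.p6). The miR-10a-5p of HoxB lies at chr11:96317186-96317208 and the miR-10b-5p of HoxD at chr2:74726074-74726096.
miR-196a-5p: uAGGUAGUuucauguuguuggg
miR-196b-5p: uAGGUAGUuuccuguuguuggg
miR-10a-5p: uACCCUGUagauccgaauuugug
miR-10b-5p: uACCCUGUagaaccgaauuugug
A perfect match to the seed of miR-196 lay in the longest annotated 3′ UTR of 9 of 39 Hox genes, 23.1%, against 6.10% of 20459 protein-coding genes, and a match to the seed of miR-10 in 4 of 39, 10.3%, against 12.4%. Among the 9 with a miR-196 match, *Hoxc8* was the only one that passed the filter on low counts, and its sites at chr15:102992976-102992997 and chr15:102993733-102993754, in the 3′ UTR, are printed with the bases complementary to miR-196a-5p in capitals (GENCODE vM21, GRCm38).
Hoxc8 first site: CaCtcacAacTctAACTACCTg
Hoxc8 second site: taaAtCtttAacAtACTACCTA
These sites are matches of letters, and mature miRNAs were not measured.

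Across the series, the neuroblastomas used mainly HoxC and HoxD, and the lymphomas had a far lower Hox level, with HoxB as the leading cluster in 6 of 7. Summed over the 39 genes, the Hox level was 253 ± 45.7 CPM (SD, n = 4) for *Th-MYCN* and 250 ± 126 CPM (n = 4) in *Th-MYCN/Casp2-/-* tumors, and 19.7 ± 8.00 CPM (n = 4) in *EμMyc* and 22.0 ± 10.5 CPM (n = 3) in *EμMyc/Casp2-/-* tumors. In the neuroblastomas HoxC gave 25.9% to 78.3% of the sum and HoxD 19.4% to 69.3%, while HoxB gave 1.19% to 4.48%. In the lymphomas HoxB gave from 48 of 120 Hox reads in EuMycC2ko239 to 90.7% in EuMycC2ko245, and HoxD gave 7.61% to 53.3%. In EuMycC2ko239 HoxD, with 64 reads, was above HoxB, and in EuMyc743b and EuMyc835 HoxD gave 35.6% and 37.5%. HoxA stayed below 6 CPM in every tumor, at 0 to 5.67 CPM.

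**Figure D1:**
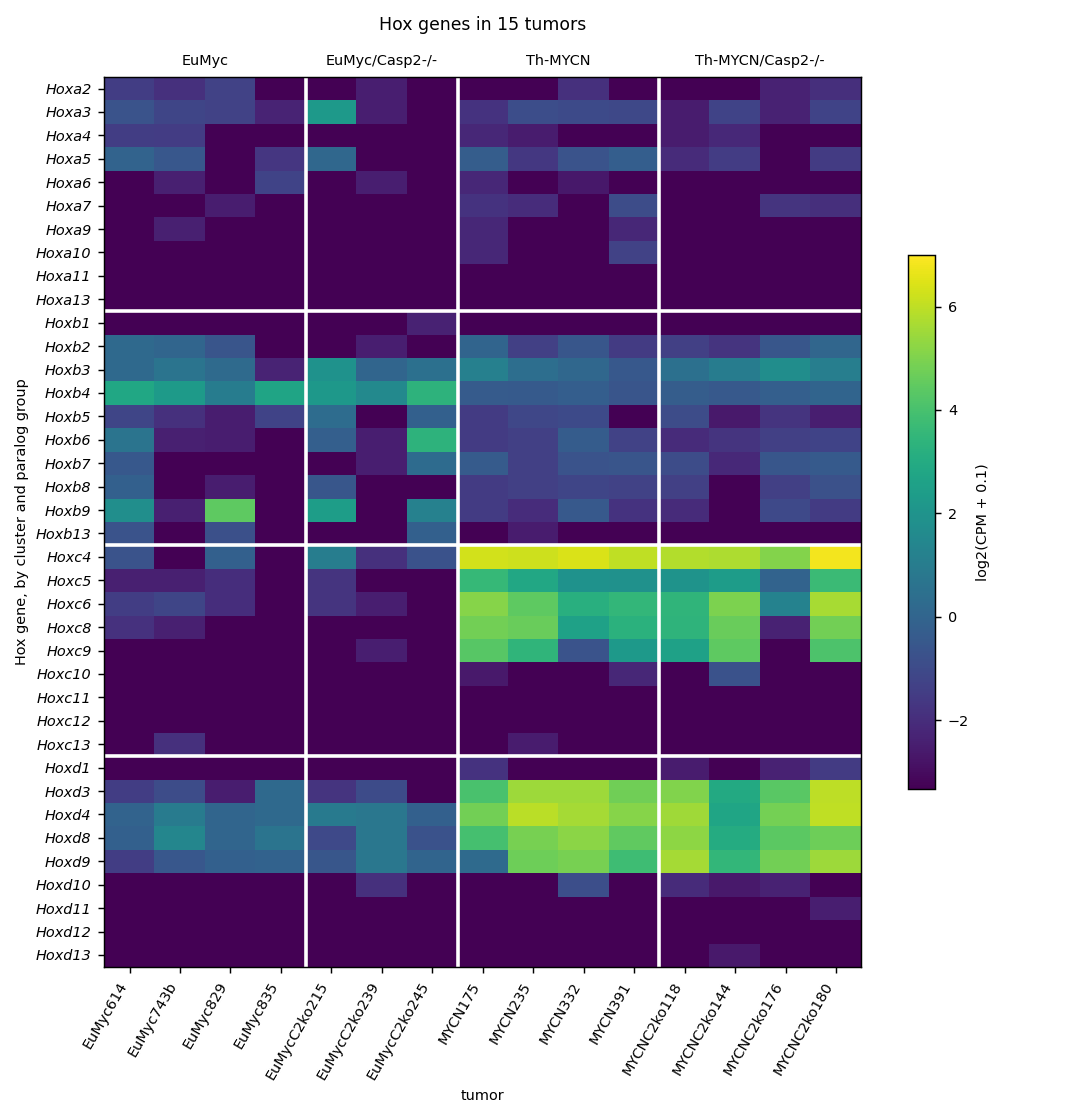
Each row is a Hox gene that is reported by name, ordered by cluster and paralog group, each column is 1 tumor, and color gives log2(CPM + 0.1). HoxC genes of groups 4 to 9 and HoxD genes of groups 3 to 9 are bright in most of the 8 neuroblastomas, and *Hoxb4* is the only Hox gene above 1 CPM in all 7 lymphomas.

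**Figure D2:**
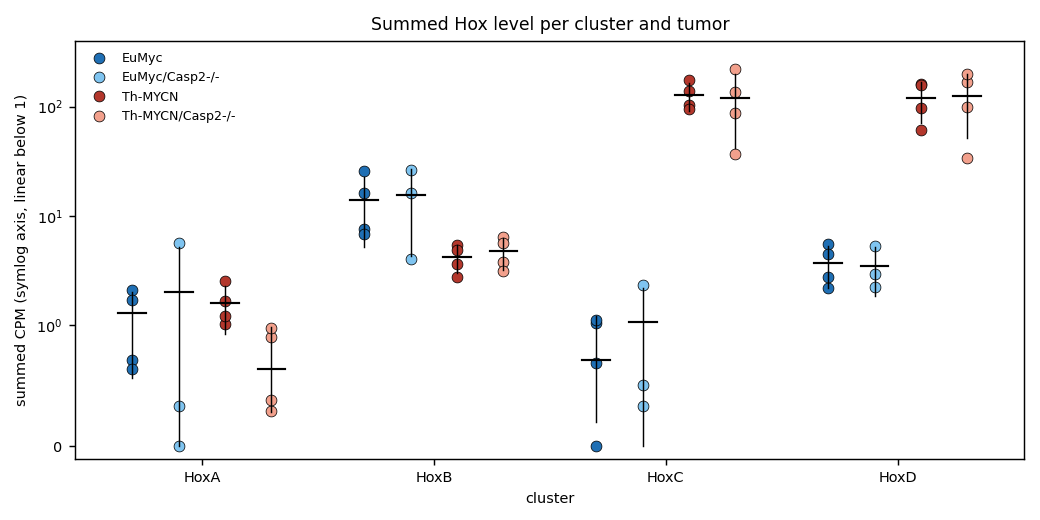
Points are tumors, the horizontal line is the group mean and the vertical line its SD, drawn no lower than 0, for the summed CPM of each cluster on a symlog axis that is linear below 1. HoxC and HoxD sums of the neuroblastomas lie between 33.9 and 219.6 CPM, and those of the lymphomas between 0 and 5.47 CPM.

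A gene was counted as detected in a tumor at 3 or more reads. By this rule 26 of 39 Hox genes were detected in at least 1 neuroblastoma and 10 in all 8, and 20 were detected in at least 1 lymphoma and 3 in all 7, *Hoxb4*, *Hoxd4* and *Hoxd9*. *Hoxa9*, *Hoxa11*, *Hoxa13*, *Hoxb1*, *Hoxc11*, *Hoxc12*, *Hoxc13*, *Hoxd11*, *Hoxd12* and *Hoxd13* had under 3 reads in every tumor. Genes of groups 10 to 13, the most posterior, gave 1 to 10 of the 1474 to 5227 Hox reads of a neuroblastoma and 0 to 8 of the 112 to 383 Hox reads of a lymphoma. The most seen for 1 of them was 8 reads of *Hoxc10* in MYCNC2ko144, 8 reads of *Hoxd10* in MYCN332 and 8 reads of *Hoxb13* in EuMycC2ko245.

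In the neuroblastomas, levels per kb of exon set the genes in order. *Hoxc4* was highest at 35.1 ± 11.8 CPM per kb (SD, n = 8), followed by *Hoxd4* at 15.6 ± 7.51, *Hoxc6* at 13.5 ± 10.2, *Hoxd9* at 11.9 ± 7.63, *Hoxd3* at 10.8 ± 6.06, *Hoxd8* at 8.97 ± 3.71, *Hoxc8* at 8.81 ± 5.99, *Hoxc9* at 4.21 ± 3.60 and *Hoxc5* at 2.12 ± 1.49 CPM per kb. *Hoxb3* came next at 0.479 ± 0.238 CPM per kb. Among these 10 genes, 3 pairs of neighbors were further apart than the SD of their difference across tumors, *Hoxc4* above *Hoxd4* in 8 of 8 tumors, *Hoxc8* above *Hoxc9* in 8 of 8, and *Hoxc5* above *Hoxb3* in 7 of 8. From *Hoxd4* to *Hoxc8* the upper gene of each pair of neighbors was higher in 4 or 5 of 8 tumors, so neighbors there had no fixed order. Genes farther apart in this stretch were not compared.

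In the neuroblastomas few reads lay beyond group 9 of either cluster. *Hoxd9* had 18 to 672 reads per tumor, and *Hoxd10*, the next gene in the 5′ direction, had 0 to 8. *Hoxc9* had 0 to 332 reads, and *Hoxc10* had 0 to 8. At the 3′ end, *Hoxd1* had at most 3 reads in any tumor beside 120 to 770 reads of *Hoxd3*. In the spinal cord *Hoxc6* and *Hoxc8* mark brachial and *Hoxc9* thoracic levels, and *Hoxd10* lumbar levels.

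**Figure D3:**
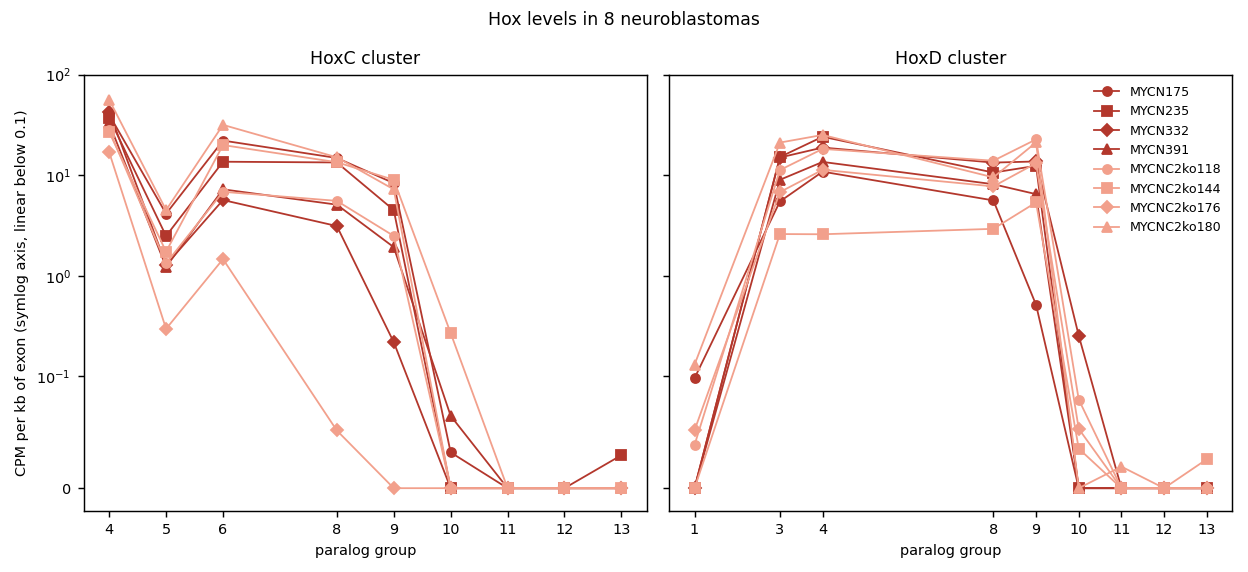
Each line is 1 neuroblastoma, drawn along the paralog groups of HoxC and HoxD, with CPM per kb of exon on a symlog axis that is linear below 0.1, with 1 color for *Th-MYCN* and another for *Th-MYCN/Casp2-/-* tumors. All lines lie at or below 0.3 CPM per kb from group 10 on, and the HoxC line of MYCNC2ko176 drops to 0 at group 9.

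*Hoxc4* was counted at 348 to 1473 reads per neuroblastoma. It had 79.0, 73.8, 85.0 and 64.8 CPM in the *Th-MYCN* tumors and 55.7, 53.1, 33.6 and 111 CPM in the *Th-MYCN/Casp2-/-* tumors. *Hoxc6* had 34.9, 21.5, 8.95 and 11.4 CPM in *Th-MYCN* and 10.8, 31.5, 2.31 and 50.0 CPM in *Th-MYCN/Casp2-/-* tumors. MYCNC2ko176 was the lowest tumor for both.

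*Hoxc8* had 27.7, 25.0, 5.83 and 9.51 CPM in *Th-MYCN* and 10.4, 25.1, 0.0964 and 28.1 CPM in *Th-MYCN/Casp2-/-* tumors. *Hoxc9*, whose human counterpart is known for a role in neuronal differentiation of neuroblastoma cells, had 19.8, 10.7, 0.519 and 4.57 CPM in *Th-MYCN* and 5.91, 21.3, 0 and 17.1 CPM in *Th-MYCN/Casp2-/-* tumors. MYCNC2ko176 stood apart, with 1 read of *Hoxc8* and none of *Hoxc9* beside 348 reads of *Hoxc4*, and MYCN332 had 9 reads of *Hoxc9* beside 1473 of *Hoxc4*. *Hoxc8* and *Hoxc9* gave 0.262% of the HoxC reads of MYCNC2ko176, 6.10% in MYCN332 and 15.0% to 34.0% in the other tumors. MYCNC2ko176 also had the lowest *Th* of the neuroblastomas, 75.9 CPM against 135 to 1447 CPM, and the highest *Slc18a3* and *Chat*, which are genes of cholinergic neurons, at 106 and 14.5 CPM against 0.436 to 38.1 and 0 to 5.50 CPM. *Phox2a*, like *Th* a sympathetic neuroblast marker, was also highest in this tumor, at 608 CPM against 70.8 to 422 CPM. Its 7 such markers summed to 3689 CPM, within the 2414 to 4538 CPM of the neuroblastomas. The part of these genes in the HoxC pattern was not tested.

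The HoxD genes varied in other tumors. *Hoxd3*, which patterns the first cervical vertebrae with *Hoxd4*, had 266, 619, 770 and 432 reads in *Th-MYCN* and 463, 120, 209 and 770 reads in *Th-MYCN/Casp2-/-* tumors. *Hoxd4* had 27.7, 61.7, 48.1 and 34.6 CPM in *Th-MYCN* and 46.7, 6.62, 28.9 and 64.3 CPM in *Th-MYCN/Casp2-/-* tumors. *Hoxd8* had 15.4, 29.1, 36.6 and 22.3 CPM in *Th-MYCN* and 38.2, 8.03, 21.2 and 26.1 CPM in *Th-MYCN/Casp2-/-* tumors. MYCNC2ko144 was the lowest for all 3 of these genes. *Hoxd9* departed from them in MYCN175, where it had 18 reads beside 252 of *Hoxd8*, at 1.10 CPM against 11.4 to 48.4 CPM in the other neuroblastomas. The ratio of the HoxC sum to the HoxD sum was 4.03 in MYCNC2ko144 and 2.86 in MYCN175, and 0.374 to 1.11 in the other neuroblastomas.

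Across the 8 neuroblastomas, levels of neighbors within a cluster were compared, and levels of genes of the same number in HoxC and HoxD. Of 10 relations computed on log2(CPM + 0.5), *Hoxd3* with *Hoxd4* had Pearson r 0.95 (exact permutation p = 2.48e-05, adjusted 0.000248) and Spearman rho 1.00 (exact permutation p = 4.96e-05, adjusted 0.000496), and r was 0.95 without the 2 tumors farthest from the median of *Hoxd3*. *Hoxc6* with *Hoxc8* had r 0.95 (exact permutation p = 7.44e-05, adjusted 0.000372) and rho 0.98 (exact permutation p = 0.000397, adjusted 0.00198), and r was 0.96 without the 2 farthest tumors. *Hoxc8* with *Hoxc9* had r 0.93 (exact permutation p = 0.000347, adjusted 0.00116) and rho 0.90 (exact permutation p = 0.00456, adjusted 0.0114), and r was 0.93 without the 2 farthest tumors. *Hoxc5* with *Hoxc6* had r 0.95 (exact permutation p = 0.000694, adjusted 0.00174) and rho 0.90 (exact permutation p = 0.00456, adjusted 0.0114), and r was 0.82 without the 2 farthest tumors. *Hoxd4* with *Hoxd8* had r 0.90 (exact permutation p = 0.00573, adjusted 0.0115) and rho 0.76 (exact permutation p = 0.0368, adjusted 0.0613), and r was 0.81 without the 2 farthest tumors. *Hoxc4* with *Hoxc5* had r 0.85 (exact permutation p = 0.0114, adjusted 0.0189) and rho 0.62 (exact permutation p = 0.115, adjusted 0.144), but r was 0.36 without MYCNC2ko180 and MYCNC2ko176, so that the relation rests on those tumors. *Hoxd8* with *Hoxd9* had r 0.59 (exact permutation p = 0.132, adjusted 0.189) and rho 0.81 (exact permutation p = 0.0218, adjusted 0.0436), and r was 0.78 without the 2 farthest tumors.

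Between the clusters, *Hoxc4* with *Hoxd4* had r 0.47 (exact permutation p = 0.236, adjusted 0.295) and rho 0.64 (exact permutation p = 0.0962, adjusted 0.137), and r was 0.56 without the 2 farthest tumors. *Hoxc8* with *Hoxd8* had r -0.21 (exact permutation p = 0.573, adjusted 0.573) and rho -0.26 (exact permutation p = 0.536, adjusted 0.536), and r was -0.44 without the 2 farthest tumors. *Hoxc9* with *Hoxd9* had r -0.38 (exact permutation p = 0.366, adjusted 0.406) and rho -0.45 (exact permutation p = 0.267, adjusted 0.297), and r was -0.41 without the 2 farthest tumors. The points share library and depth, a group of 4 tumors is too small for a value within each genotype, and the difference between the kinds of pairs was not tested.

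In the lymphomas *Hoxb4*, known for expansion of blood stem cells, was the only Hox gene above 1 CPM in every tumor. It had 7.00, 4.79, 1.89 and 6.37 CPM in the *EμMyc* tumors and 4.49, 2.84 and 10.1 CPM in the *EμMyc/Casp2-/-* tumors. Per kb it was at 2.09 ± 1.07 CPM (SD, n = 7), and it differed by less than the spread from *Hoxb9*, next in order at 1.79 ± 2.97 CPM per kb. *Hoxb6* followed at 1.35 ± 2.77, *Hoxd4* at 0.497 ± 0.177, *Hoxd8* at 0.430 ± 0.277, *Hoxb3* at 0.392 ± 0.317, *Hoxd9* at 0.373 ± 0.192, *Hoxa3* at 0.334 ± 0.654 and *Hoxc4* at 0.284 ± 0.343 CPM per kb. No neighbors in this order were further apart than the SD of their difference.

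*Hoxb9* and *Hoxb6* were uneven among the lymphomas. *Hoxb9*, a patterning gene of the rib cage, had 3.32, 0.0855, 21.3 and 0 CPM in the *EμMyc* tumors and 5.27, 0 and 2.22 CPM in the *EμMyc/Casp2-/-* tumors, that is 271 reads in EuMyc829 and 0 or 1 in 3 tumors. *Hoxb6* had 17, 1, 1 and 0 reads in the *EμMyc* tumors and 4, 1 and 99 reads in the *EμMyc/Casp2-/-* tumors, the last of which is EuMycC2ko245 with 9.99 CPM. The *Mir196a-1* locus, whose reads here come from poly(A) transcripts and not from the mature miRNA, had 90 reads in EuMyc829 and 28 in EuMycC2ko215, 4 in EuMyc614, 1 in EuMycC2ko245 and 0 in the other 3 lymphomas. EuMyc829 was thus the highest lymphoma for both *Hoxb9* and the neighboring locus that encodes the miR-196a-5p printed above.

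**Figure D4:**
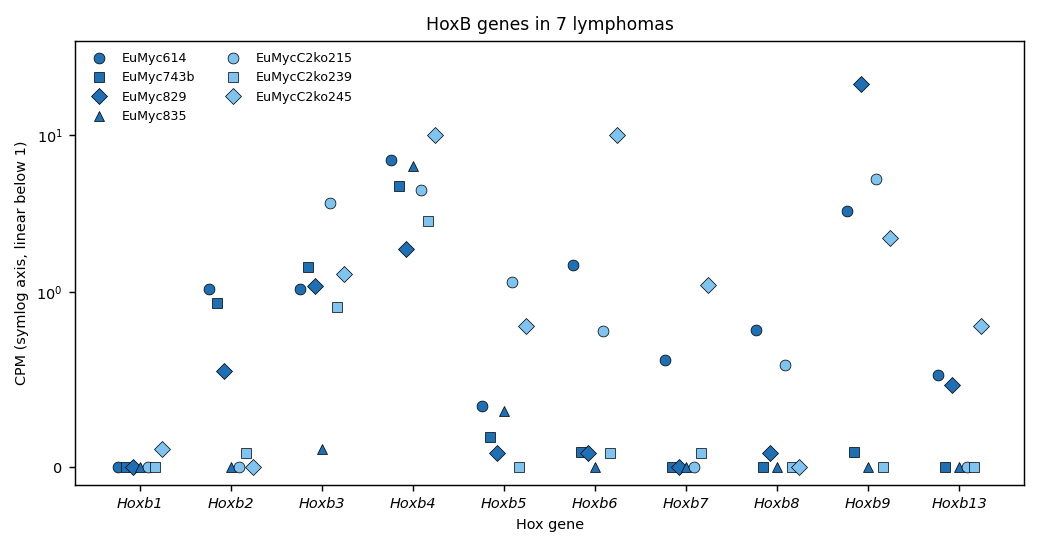
Points are the 7 lymphomas, spread sideways within each HoxB gene, with CPM on a symlog axis that is linear below 1. *Hoxb4* lies between 1.89 and 10.1 CPM in all of them, and *Hoxb9* in EuMyc829 and *Hoxb6* in EuMycC2ko245 stand at 21.3 and 9.99 CPM.

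HoxA was near the limit of detection. *Hoxa3* had 24 reads in EuMycC2ko215, 4.69 CPM, and 0 to 7 in any other tumor, and *Hoxa5* had 0 to 12 reads. Summed over its 11 genes, HoxA was at 1.65, 1.02, 1.21 and 2.53 CPM in the *Th-MYCN* tumors and at 0.288, 0.900, 0.386 and 0.975 CPM in the *Th-MYCN/Casp2-/-* tumors. These did not overlap, but they rest on 14 to 41 and 4 to 14 reads, and no HoxA gene passed the filter on low counts. With the reads of both strands the sums were 1.13 to 2.29 and 0.325 to 0.871 CPM.

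Of the 39 Hox genes, 12 passed the filter of over 1 CPM in at least 3 tumors and were tested, *Hoxb3*, *Hoxb4*, *Hoxb9*, *Hoxc4*, *Hoxc5*, *Hoxc6*, *Hoxc8*, *Hoxc9*, *Hoxd3*, *Hoxd4*, *Hoxd8* and *Hoxd9*. DEGs were called at FDR under 0.05 and a fold change over 2, over all 14880 genes tested. To ask whether loss of *Casp2* changed the Hox genes of neuroblastoma, *Th-MYCN/Casp2-/-* tumors were compared with *Th-MYCN* tumors. None of the 12 was a DEG by the LRT, which called 0.813% of all genes, nor by the QLF, which called 0.0336%, nor by DESeq2, and none had an unadjusted p under 0.05, as 7.78% of all genes had by the LRT and 6.77% by the QLF. The groups overlapped for all 12, where 2.94% of all genes were higher and 3.68% lower without overlap, and the median log2 fold change was -0.09, against -0.0024 over all genes. Of the 12, *Hoxb4* and *Hoxb9* passed the filter only through the lymphomas and had low counts here.

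The 5 with the smallest p were *Hoxd9*, *Hoxb3*, *Hoxc4*, *Hoxd4* and *Hoxb9*. *Hoxd9* had 1.10, 26.4, 29.2 and 13.8 CPM in *Th-MYCN* and 48.4, 11.4, 28.1 and 45.2 CPM in *Th-MYCN/Casp2-/-* tumors, which overlapped. It was at 33.3 ± 17.1 CPM (SD, n = 4) without *Casp2* and 17.6 ± 12.9 CPM (n = 4) with it, and the log2 fold change was 0.91 ± 0.69 (SE), 95% interval from -0.43 to 2.26 (edgeR LRT FDR 0.939, QLF FDR 0.949). *Hoxb3*, a hindbrain patterning gene, had 2.14, 1.23, 0.981 and 0.618 CPM in *Th-MYCN* and 1.30, 1.93, 3.28 and 2.03 CPM in *Th-MYCN/Casp2-/-* tumors, and the log2 fold change was 0.77 ± 0.61 with an interval from -0.42 to 1.96 (edgeR LRT FDR 0.952, QLF FDR 0.959). *Hoxc4* had a log2 fold change of -0.26 ± 0.53 with an interval from -1.30 to 0.79, and *Hoxd4* of -0.23 ± 0.52 with an interval from -1.24 to 0.78. *Hoxb9* had 4, 2, 11 and 3 reads in *Th-MYCN* and 2, 0, 4 and 3 reads in *Th-MYCN/Casp2-/-* tumors, and its log2 fold change was -0.65 ± 1.53. The FDR of these 3 was 1.00 by both edgeR tests. The intervals of *Hoxc9*, from -2.04 to 2.68, and *Hoxb9*, from -3.64 to 2.34, held 4-fold changes in both directions. Those of *Hoxc8*, from -2.02 to 1.83, and *Hoxd9* held them in 1 direction. Changes of this size were therefore not excluded for these genes.

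**Figure D5:**
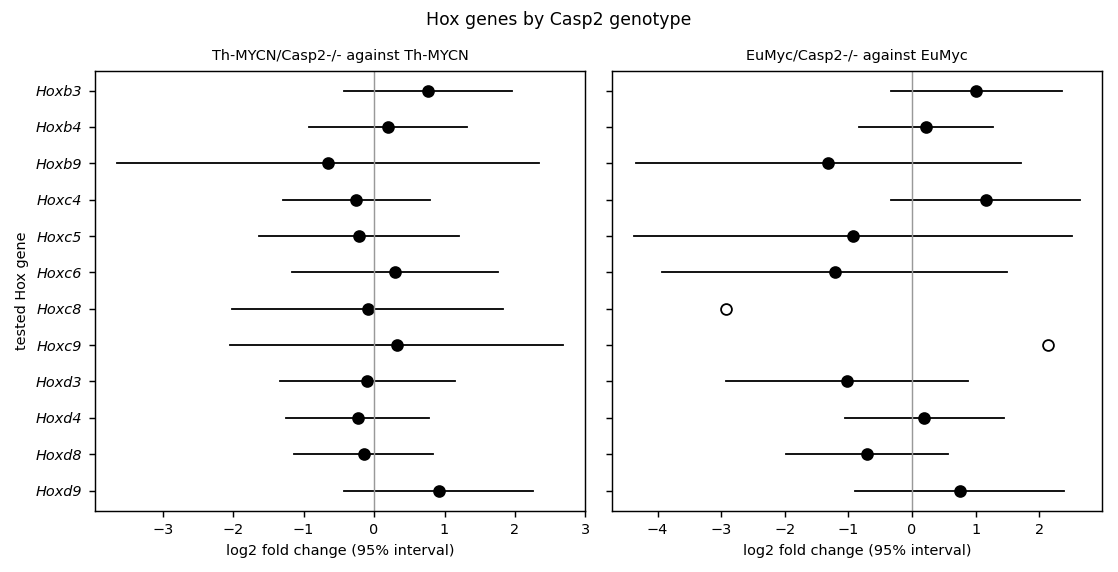
Points are log2 fold changes of the 12 tested Hox genes without against with *Casp2*, and lines their 95% intervals, in the neuroblastomas (left) and the lymphomas (right). Open points are genes with 0 reads in all tumors of 1 group, for which no interval exists, and every interval drawn crosses 0.

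In the lymphomas *EμMyc/Casp2-/-* tumors were compared with *EμMyc* tumors. None of the 12 was a DEG by the LRT, which called 1.44% of all genes, by the QLF, which called 0.141%, or by DESeq2, and none had an unadjusted p under 0.05, as 9.89% of all genes had by the LRT and 8.53% by the QLF. The groups overlapped for all 12, where 1.75% of all genes were higher and 1.96% lower without overlap. The median log2 fold change was -0.26, against -0.03 over all genes, and includes the fits of *Hoxc8* and *Hoxc9*, each with 0 reads in 1 group. Of the 12, 7 passed the filter only through the neuroblastomas. Their lymphoma counts were low, as for *Hoxc5* with 4 reads over the *EμMyc* and 1 over the *EμMyc/Casp2-/-* tumors. The lack of a call therefore says little about these 7. The 5 with the smallest p were *Hoxc4*, *Hoxc8*, *Hoxb3*, *Hoxc9* and *Hoxd8*, of which 3 rest on few reads. *Hoxc4* had 6, 0, 10 and 0 reads in *EμMyc* and 10, 2 and 5 reads in *EμMyc/Casp2-/-* tumors (log2 fold change 1.16 ± 0.76, edgeR LRT FDR 0.692, QLF FDR 0.812). *Hoxc8* had 2, 1, 0 and 0 reads against 0 in all 3, and *Hoxc9* had 0 in all 4 against 0, 1 and 0, so that no fold change is given. *Hoxb3* had 1.05, 1.45, 1.10 and 0.106 CPM in *EμMyc* and 3.71, 0.918 and 1.31 CPM in *EμMyc/Casp2-/-* tumors (log2 fold change 1.01 ± 0.69, edgeR LRT FDR 0.713, QLF FDR 0.745), with the highest value in EuMycC2ko215, the tumor of high T cell markers. *Hoxd8* had 0.787, 2.57, 0.945 and 1.49 CPM in *EμMyc* and 0.391, 1.59 and 0.505 CPM in *EμMyc/Casp2-/-* tumors (log2 fold change -0.71 ± 0.65, edgeR LRT FDR 0.819, QLF FDR 0.804). *Hoxb4* had a log2 fold change of 0.22 with an interval from -0.83 to 1.27.

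Whether the change without *Casp2* differed between the tumor types was tested as an interaction. None of the 12 passed by the LRT, which called 0.914% of all genes, or by the QLF, which called 0.0538%, and the smallest FDR was 0.736 and 0.850. None had an unadjusted p under 0.05, as 8.96% and 7.57% of all genes had, and DESeq2 called none. For the 7 genes that passed the filter only through the neuroblastomas, this test rests on the same low lymphoma counts. For the 2 that passed only through the lymphomas, it rests on low neuroblastoma counts.

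Between the tumor types, *EμMyc* were compared with *Th-MYCN* tumors. By the LRT and the QLF, 2 of the 12 tested Hox genes were higher in lymphoma, *Hoxb4* and *Hoxb9*, where 18.9% and 18.3% of all genes were higher. The other 9 DEGs, which were all tested HoxC and HoxD genes, were lower in lymphoma, where 28.5% and 27.8% of all genes were lower, and *Hoxb3* was not called. Of the 12, 7 passed the filter only through the neuroblastomas and 2 only through the lymphomas, so that their counts by direction follow in part from the filter. *Hoxc4* was at 0.328 ± 0.394 CPM in *EμMyc* and 75.7 ± 8.55 CPM in *Th-MYCN* tumors (SD, n = 4 each), with log2 fold change -7.75 ± 0.65 (SE; edgeR LRT FDR 3.34e-24, QLF FDR 3.82e-07). *Hoxc6* followed with -6.55 ± 0.89 (edgeR LRT FDR 2.22e-10, QLF FDR 3.38e-05) and *Hoxc5* with -6.11 ± 1.03 (edgeR LRT FDR 2.88e-09, QLF FDR 6.16e-05). *Hoxc9* had 0 reads in the 4 *EμMyc* tumors and 554 in the *Th-MYCN* tumors, at least 131-fold lower against a floor of 3 reads over the group. *Hoxc8* had 3 and 1052 reads, a ratio of 249 with a 95% counting interval from 85.0 to 1210. That interval leaves out the spread between tumors. The fit, which includes it, gave *Hoxc8* -7.81 ± 1.29 with a 95% interval from -10.33 to -5.28 (edgeR LRT FDR 6.96e-08, QLF FDR 0.000296).

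The HoxD genes were lower in *EμMyc* tumors as well. *Hoxd3* had a log2 fold change of -6.19 ± 0.71 (edgeR LRT FDR 2.96e-13, QLF FDR 8.25e-06), *Hoxd4* of -5.16 ± 0.55 (LRT FDR 1.99e-15, QLF FDR 2.87e-06), *Hoxd9* of -4.80 ± 0.74 (LRT FDR 2.73e-08, QLF FDR 0.000122) and *Hoxd8* of -4.15 ± 0.53 (LRT FDR 9.20e-12, QLF FDR 1.37e-05). In all 9 genes the 4 *EμMyc* tumors lay below the 4 *Th-MYCN* tumors, as they did for 32.9% of all genes, and 26.4% lay above. *Hoxb4* was at 5.01 ± 2.28 CPM in *EμMyc* and 0.658 ± 0.0799 CPM in *Th-MYCN* tumors (SD, n = 4 each), with log2 fold change 2.91 ± 0.53 (SE; edgeR LRT FDR 4.19e-07, QLF FDR 0.000139), and the groups did not overlap. *Hoxb9* had a log2 fold change of 4.31 ± 1.46 (edgeR LRT FDR 0.0151, QLF FDR 0.0252), but the groups overlapped, and without EuMyc829 it was 1.87 (LRT FDR 0.253). Without MYCN235 it was 4.09 (LRT FDR 0.0508). *Hoxb3* had -0.40 ± 0.63 (LRT FDR 0.596, QLF FDR 0.613).

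*EμMyc/Casp2-/-* and *Th-MYCN/Casp2-/-* tumors are other animals than those just compared. The same 12 genes, filtered over all 15 tumors, were tested in the same fit, so counts by direction here too follow in part from the filter. The LRT again called *Hoxb4* and *Hoxb9* higher in lymphoma, where 20.5% of all genes were higher, and the 9 HoxC and HoxD genes lower, where 27.6% were lower. The QLF called *Hoxb4* higher, where 19.7% of all genes were higher, and the same 9 lower, where 26.6% were lower. Of all genes 23.6% were higher and 31.2% lower without overlap, and of the 12 these were 1 and 8. *Hoxc4* had a log2 fold change of -6.34 ± 0.66 (SE; edgeR LRT FDR 2.10e-14, QLF FDR 7.48e-06), *Hoxd4* of -4.74 ± 0.61 (LRT FDR 1.34e-10, QLF FDR 2.75e-05) and *Hoxb4* of 2.93 ± 0.57 (LRT FDR 1.32e-06, QLF FDR 0.000216). The other HoxD genes were lower by a log2 fold change of -7.11 for *Hoxd3*, -4.97 for *Hoxd9* and -4.72 for *Hoxd8*. *Hoxc8* had 0 reads against 882, at least 152-fold lower, *Hoxc5* had 1 against 304 and *Hoxc9* 1 against 625. *Hoxc6* had 2 against 1279, a ratio of 331 with a 95% counting interval from 91.5 to 2739, which leaves out the spread between tumors. The fit, which includes it, gave *Hoxc6* -8.07 ± 1.29 with a 95% interval from -10.61 to -5.54 (edgeR LRT FDR 1.37e-09, QLF FDR 6.90e-05). The groups overlapped for *Hoxc9*, since MYCNC2ko176 had 0 reads. *Hoxb9* had a log2 fold change of 3.64 ± 1.61 (edgeR LRT FDR 0.0466, QLF FDR 0.0752) and *Hoxb3* of -0.16 ± 0.67 (LRT FDR 0.854).

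A list of 10 genes, the TALE cofactors that share DNA sites with Hox proteins and *Pbxip1*, also differed between the tumor types. By both edgeR tests, 7 of 10 were lower and 1 higher in *EμMyc* than in *Th-MYCN* tumors, where 28.5% of all genes were lower and 18.9% higher by the LRT, and 6 lower and 1 higher in the *Casp2-/-* comparison, where 27.6% and 20.5% were. *Meis1* was at 1.10 to 2.97 CPM in the lymphomas and 195 to 359 CPM in the neuroblastomas (log2 fold change -7.02 ± 0.27, edgeR LRT FDR 2.93e-113, QLF FDR 8.20e-11, *EμMyc* against *Th-MYCN*). *Meis3* had -3.21 ± 0.38 (LRT FDR 1.80e-14, QLF FDR 4.48e-06). *Pbxip1*, which binds Pbx proteins but is not itself a TALE protein, was the one that was higher (2.53 ± 0.23, LRT FDR 9.18e-25, QLF FDR 8.26e-08). *Meis2* ranged among the neuroblastomas from 24.6 CPM in MYCNC2ko118 to 572 CPM in MYCN332. None of the 10 was a DEG between genotypes in either tumor type by either edgeR test.

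Genes known to set Hox expression were compared in the same way. Of 11 tested positive regulators, among them the MLL complex and the retinoic acid pathway, 1 was higher and 4 lower in *EμMyc* than in *Th-MYCN* tumors by both edgeR tests, and of 18 tested repressors, mostly Polycomb genes, 5 were higher and 4 lower. These counts stand beside the 18.9% of all genes that were higher and the 28.5% that were lower by the LRT. *Kdm6b*, a demethylase that removes the Polycomb mark, was lower (log2 fold change -1.75, edgeR LRT FDR 4.70e-12, QLF FDR 8.96e-06), as were *Gdf11*, *Rarb* and *Rara*, and *Aldh1a2*, which makes retinoic acid, was higher (4.00). Of the repressors, *Eed* was higher (2.14) and *Phc1* and *Bmi1* were lower (-2.39 and -1.33). *Cdx1*, *Cdx2* and *Cdx4*, the classical activators of trunk Hox genes, did not pass the filter. In the *Casp2-/-* comparison of tumor types, 1 positive regulator was higher and 2 lower by both edgeR tests, and 4 repressors were higher and 4 lower. There 20.5% of all genes were higher and 27.6% lower by the LRT. Between genotypes no repressor was a DEG. Of the positive regulators *Gdf11*, a signal for posterior Hox genes, was higher in *EμMyc/Casp2-/-* than in *EμMyc* tumors by the LRT (log2 fold change 2.79 ± 0.75, LRT FDR 0.0216) and not by the QLF (FDR 0.214), with 8 reads in EuMycC2ko215, 253 in EuMycC2ko239 and 39 in EuMycC2ko245. The *EμMyc* tumors had 4, 39, 10 and 6 reads, so the groups overlapped and EuMycC2ko239 alone lay far above the rest.

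Of 11 tested genes that flank the clusters, 3 were higher and 2 lower in *EμMyc* than in *Th-MYCN* tumors by the LRT, beside the same 18.9% and 28.5% of all genes, with a median log2 fold change of 0.01. *Skap2* and *Hibadh*, which flank HoxA, were higher (2.75 and 1.04) and *Snx10* lower (-2.85), and *Hnrnpa1*, beside HoxC, was lower (-1.53). *Skap1*, a T cell adaptor beside HoxB, was higher in *EμMyc/Casp2-/-* than in *EμMyc* tumors by the LRT (log2 fold change 5.25 ± 1.01, LRT FDR 0.000929) and not by the QLF (FDR 0.0695), at 36.3 and 23.0 CPM in EuMycC2ko215 and EuMycC2ko239. It was at 0.707 CPM in EuMycC2ko245, within the 0.0875 to 1.17 CPM of the *EμMyc* tumors, so the groups overlapped. In that comparison *Gata3*, *Cd8a*, *Cd4* and *Cd3d* were also higher by the LRT alone, and *Cd8a* had 362 CPM in EuMycC2ko215 and 0.437 to 9.85 CPM in the other lymphomas. In the neuroblastomas the endothelial genes *Pecam1* and *Kdr* were lower without *Casp2* by the LRT (log2 fold changes -1.20 and -1.46) and not by the QLF. The part of these genes in the Hox levels was not tested.

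Of 10 noncoding genes of the clusters in the files, 1 was tested, *1700109F18Rik*, the antisense gene *Hoxd3os1* of HoxD. It had 14, 33, 44 and 41 reads in *Th-MYCN* and 39, 3, 12 and 35 reads in *Th-MYCN/Casp2-/-* tumors, lowest in MYCNC2ko144, where *Hoxd3* was also lowest, and 0 to 2 in the lymphomas. Its log2 fold change was -6.03 ± 1.62 in *EμMyc* against *Th-MYCN* tumors (edgeR LRT FDR 2.78e-07, QLF FDR 0.000263) and -0.25 ± 0.75 without against with *Casp2* in the neuroblastomas (edgeR LRT FDR 1.00). The libraries did not keep strand, so its reads and those of any gene over it on the other strand cannot be told apart.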

How the data were processed

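Tumor RNA was enriched for poly(A), sequenced as single-end reads on an Illumina HiSeq, checked with FastQC, aligned to mm10/GRCm38 with STAR and counted per gene by the authors, who deposited raw counts (versions and gene annotation are not given in the sources used here). The files give 3 columns of counts, 1 without regard to strand and 1 for either direction, and the second strand column was analysed, as by the authors. The strand columns split the reads 50.7% to 51.2%, so the libraries do not keep strand and neither strand column holds all reads of a gene. In that column 66.4% to 71.8% of reads were on lines that name no gene, and these stayed out of library sizes and tests. No column of other samples or of the authors' comparisons was present (0 unused).

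The edgeR package (4.0.16, under R 4.3.3) was used for all tests on counts. Genes over 1 CPM in at least 3 tumors (14880 of 23329) were kept, libraries were scaled by TMM, and 4 group means were fitted to all 15 tumors. The likelihood ratio test followed the study, with the QLF beside it. SEs and 95% intervals come from that fit. The tests were tested on simulated data. Exons of *Hoxa3* and *Hoxa11* overlap antisense genes, and reads there cannot be told apart from theirs, though *Hoxa11* had 0 reads in every tumor. *Hoxd3* had 7274 reads without regard to strand, fewer than the 3641 and 3674 of the strand columns together. Some of its reads therefore also fell on a gene of the other strand. Levels per kb use the union of exons of those GENCODE vM21 (GRCm38) transcripts that are paired with a RefSeq transcript. The union over all GENCODE transcripts is longer for some genes, 2408 against 1581 bases for *Hoxc6*, and the order by that length was not computed. The RefSeq coordinates and sequences are of GRCm38.p6. Alternatives were the QLF, DESeq2 1.42.0, RLE, no TMM, no filter, the other count columns, only the groups compared, sex as a covariate and leaving out each tumor. Correlations used scipy 1.17.1.

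Members, lists and tests were chosen with earlier results of these data known. In each genotype comparison the 5 Hox genes of smallest p are described in full, and between tumor types the 10 tested Hox genes highest per kb in each type. Of other lists, every DEG between genotypes and up to 4 genes of smallest p between types are named, except for some genes that are not reported here. *Hoxb6*, *Mir196a-1* and single tumors that stand apart were named after their values were seen. A further *EμMyc/Casp2-/-* tumor that the study removed is not analysed here.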

Additional observations from a re-analysis of the deposited data

Results flagged for a closer look

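In 49 group-wise checks of Hox values with 4 tumors, 4 tumors stood apart by Dixon's test at the 95% level, and chance marks about 1 in 20 groups. *Hoxb9* in EuMyc829 was at 21.3 CPM against 0 to 3.32 CPM in the other *EμMyc* tumors. *Hoxb6* in EuMyc614 was at 1.49 CPM against 0 to 0.0855 CPM in the others. *Hoxb6* in MYCN332 was at 0.693 CPM against 0.244 to 0.309 CPM in the other *Th-MYCN* tumors, from 12 reads. The ratio of HoxC to HoxD in MYCN175 was 2.86 against 0.655 to 0.965 in the other *Th-MYCN* tumors. Muscle, motor neuron and kidney markers summed to 189 CPM in MYCN175 and to 5.74 to 7.16 CPM in those others. Of the *Th-MYCN/Casp2-/-* tumors, MYCNC2ko118 and MYCNC2ko176 had sums of 239 and 123 CPM, with ratios of 0.519 and 0.374. The sums of MYCN175 and MYCNC2ko118 came mostly from muscle genes, and that of MYCNC2ko176 mostly from *Slc18a3*. The part of these markers was not tested.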

How the results depend on the processing

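No paired analysis was possible because the tumors carry mouse numbers that the groups do not share. In the 5 comparisons, no alternative moved the count of Hox DEGs by over 1.5 times. Without *Casp2* in either tumor type, and for the interaction, the count stayed at 0 under all of them. Between tumor types it was 10 to 11 without single tumors, and 14 of 34 tested genes in the *Casp2-/-* tumors with no filter on low counts, against 11 of 12. *Hoxb9* lost its call in the *Casp2-/-* comparison by the QLF (log2 fold change 3.65), with no filter (3.58), with the other strand column (3.77) and in 11 of 15 fits that left out a tumor (2.53 to 4.28 over all 15), and in *EμMyc* against *Th-MYCN* tumors in 2 of 15 (1.87 to 4.94 over all 15). *Hoxb3*, not called, changed sign with sex as a covariate in both comparisons of tumor types (0.051 and 0.018), and in the *Casp2-/-* one in 3 of 15 fits that left out a tumor (-0.87 to 0.26). The fitted value of *Hoxc9* between lymphoma genotypes, which rests on 1 read against 0 and from which no direction is read, was 2.14, and -1.69 with the other strand column. Leaving out a tumor turned *Hoxd4* in the neuroblastomas (-0.62 to 0.12, turned without MYCNC2ko144) and *Hoxc4* in the lymphomas (-0.063 to 1.997, turned without EuMycC2ko215). The causes were not tested. At 10 reads in place of 3, the Hox genes detected in some tumor fell from 20 to 11 in *EμMyc*, 25 to 16 in *Th-MYCN* and 22 to 12 in *Th-MYCN/Casp2-/-* tumors. Depth limits HoxA and groups 10 to 13, of which no single gene had over 24 reads in a tumor.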
